A study of Sus scrofa with 9 samples.

Results

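The array probes described here are those whose annotation names a part of the mitochondrial respiratory chain or an ATP synthase. They were chosen by wording alone: a probe belonged if its description contained NADH dehydrogenase, NADH-ubiquinone oxidoreductase, succinate dehydrogenase, ubiquinol-cytochrome or ATP synthase, and did not contain cytochrome c oxidase. No measured value entered that rule, though it was chosen with earlier results of these data known. Of the 43603 probes on the array that are not controls, 156 met the wording, and their gene name column holds 153 of the array's 41325 different entries. The wording matched far more than the pig's respiratory chain. Only 40 probes, for 27 genes, carried a pig or other mammalian match to a subunit of complex I, II or III or of the mitochondrial ATP synthase. A further 4 probes, for 3 genes, named the vacuolar ATPase, a proton pump of lysosomes and other acid compartments that is no part of the mitochondrion. The other 112 probes sat on pig transcripts whose best recorded match was a stretch of an insect, worm, fungal, plant, bacterial or other non-mammalian protein. That match covered a median of 7% of the protein, from 3% to 25%, and 96 of the 112 were worded as subunits that mitochondrial DNA encodes. These 112 are called non-mammalian matches below, because the data give no ground to treat them as respiratory chain genes.

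The study fed azide by mouth to male specific-pathogen-free Clawn miniature pigs, at 300 µg/kg, stated to be 0.01 of the median lethal dose. Whole blood was sampled before feeding, at 6 h and at 24 h, with 3 arrays per time and 9 in all. The age is given as 7 months in some label fields and as 7 weeks in another. The labels do not say whether samples with the same replicate number came from the same pig, and p-values therefore measure the spread between these samples. No pigs left without azide were sampled at 6 h or 24 h. Each time lies on a slide and scan of its own, so the time after feeding and the slide cannot be told apart. Both comparisons with the samples before feeding also share those 3 arrays.

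In the respiratory chain, complex I takes electrons from NADH and complex II takes them from succinate, and both pass them to ubiquinone. Complex III carries them on to cytochrome c and complex IV to oxygen, and the ATP synthase uses the proton gradient so built to make ATP. Azide is a classical inhibitor of complex IV and of the F1 part of the ATP synthase. Complex II is encoded wholly in the nucleus, while the other complexes combine nuclear subunits with a few encoded by mitochondrial DNA, whose messengers are among the most abundant in most cells. In blood, platelets and white cells carry mitochondria and mature red cells do not.

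The comparison of mitochondrial with nuclear genes rests on 3 probes, whose sequences are shown here for that reason, 5′ to 3′, all in lower case because no part of them was singled out. Those named ND2 and ND6 match pig complex I subunits over 16% and 31% of the protein, and the one named ATP6 matches 9% of a seal ATP synthase subunit. No mitochondrial genome was used here, so whether each lies in the named gene was not tested.
ND2: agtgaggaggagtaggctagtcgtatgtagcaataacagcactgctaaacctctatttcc
ND6: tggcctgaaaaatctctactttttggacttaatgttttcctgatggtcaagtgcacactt
ATP6: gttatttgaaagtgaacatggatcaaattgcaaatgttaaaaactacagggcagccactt

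The ATP6 probe was not well above background on any of the 9 arrays. Probes for 2 further mitochondrial genes outside the wording, MT-CYB of complex III and MT-CO2 of complex IV, were likewise never well above background. ND2 and ND6 were well above background on all 9 arrays, at percentiles 54 and 50 of signal among the probes tested. Signal depends on the probe as well as the transcript, so these ranks do not give transcript abundance. The label "mitochondrially encoded" is therefore used below only as the wording of these 2 probes.

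Between 39.9% and 56.6% of each array's spots were well above background, and no spot was saturated. Levels are log2 of the processed signal minus the array's 75th percentile, so 0 is that percentile. A probe was tested with limma if some time had it well above background on each of its 3 arrays, which 19783 probes met. They include 79 of the 156 member probes: 30 of the 40 mammalian matches, all 4 for the vacuolar ATPase and 45 of the 112 non-mammalian matches (40.2%), beside 45.4% of all probes. At an adjusted p under 0.05, over all 19783 probes, 0 of the 79 passed at 6 h against before feeding, where 0.0253% of all probes did. For 24 h against before feeding, and for 24 h against 6 h, 0 of 79 passed and 0.0% of all probes did. Of the 79, 65 were well above background on all 9 arrays, and the smallest adjusted p among these was 0.0815, 0.239 and 0.128 in that order. The other 14 could have entered the test through the times at which they are high. At an unadjusted p under 0.05, 21, 13 and 16 of the 79 passed, where 25.5%, 13.9% and 21.6% of all probes did. The share of members with such a p was thus near that of all probes in each comparison. The differences below are given with limma's standard error (SE) and adjusted p (Benjamini-Hochberg), and none passed the threshold. With the array of 6 h replicate 2 left out, 8 member probes passed at 6 h against before feeding and 7 at 24 h against 6 h, where 12.2% and 8.92% of all probes did.

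With each gene counted once, by its brightest tested probe, 70 genes or transcripts remained. Their median log2 difference was -0.14 for both times against before feeding, and -0.04 between the times after feeding. Over all probes tested the medians were 0.04, -0.01 and -0.09. The classes of member differed in where their values lay. The 20 nuclear genes of the respiratory chain and ATP synthase, NDUFA4 included, had medians of -0.28, -0.45 and -0.04. Lower values were found for 14 of them at 6 h and for 18 at 24 h against before feeding, where 47.5% and 51.0% of all probes had lower values. Between 6 h and 24 h, 11 of the 20 were lower at 24 h, where 56.3% of all probes were. The 45 non-mammalian matches had medians of -0.07, -0.04 and -0.15, with 24 of 45 lower at each time against before feeding. Of the 45, 33 were well above background on all 9 arrays, and these ran from -1.12 to 1.15 at 6 h, where the nuclear genes ran from -0.84 to 0.54.

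**Figure D1:**
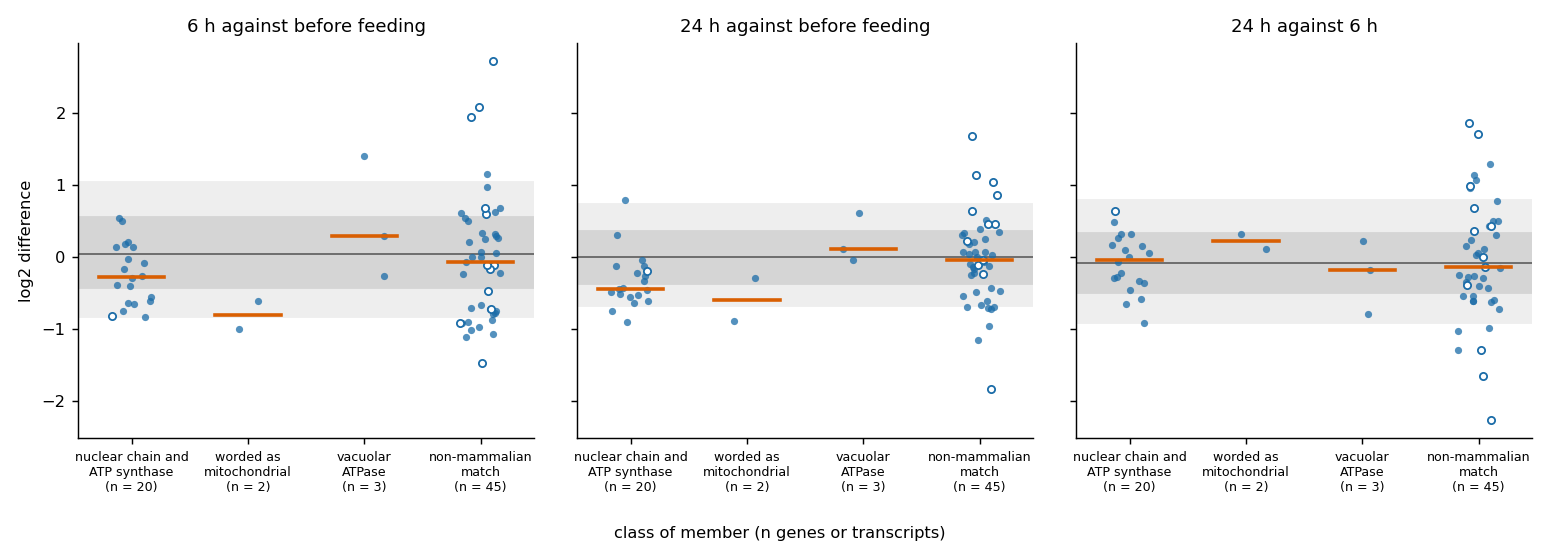
Log2 difference (vertical axis) of each member gene or transcript, by class (horizontal axis), in the 3 comparisons; dots are genes or transcripts, hollow where not every array was well above background (12 non-mammalian matches and NDUFA7), orange bars are class medians, and grey bands span the 25th to 75th and the 10th to 90th percentile of all 19783 probes tested around their median line. The 20 nuclear genes have medians of -0.28, -0.45 and -0.04, and the 33 non-mammalian matches drawn solid run from -1.12 to 1.15 at 6 h.

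The 8 tested nuclear genes of the ATP synthase, among them ATP5S (coupling factor B), each had lower values at 6 h and at 24 h than before feeding. ATP5S was read from a probe on a transcript matched to 19% of the protein, and whether it measures the gene was not tested. For that probe the 6 h value was only -0.03, and it ran from -0.17 to 0.00 over the 5 other scalings. The median log2 difference of the 8 was -0.48 at 6 h and -0.55 at 24 h. Between 6 h and 24 h it was -0.04, a value whose sign turned under each of the 5 other scalings, up to 0.39. At 6 h 3 of the 8 genes, and at 24 h 5 of the 8, had all 3 arrays below all 3 arrays before feeding, where 10.7% and 19.0% of all probes did. At an unadjusted p under 0.05, 2 of the 8 passed at each time, where 25.5% and 13.9% of all probes did. The direction at 6 h was the same under each of the other 5 scalings, from -0.80 to -0.58, and with spike-in centring, at -0.24. At 24 h it was the same under those 5, from -0.57 to -0.34, but spike-in centring gave 0.46. Spike-in centring moved the median of all probes by 0.28 at 6 h, 1.00 at 24 h and 0.68 between them, and relative to that shift the ATP synthase median at 24 h was -0.54.

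ATP5O, now ATP5PO, the stalk subunit that confers sensitivity to oligomycin, stood at 3.80, 3.32 and 3.39 before feeding, at 2.36, 3.04 and 2.57 at 6 h and at 2.71, 2.89 and 3.32 at 24 h. All 6 h arrays lay below all arrays before feeding, and at 24 h the highest array equalled the lowest before feeding to the second decimal. The log2 difference was -0.84 ± 0.30 (SE) at 6 h, 1.79-fold lower (adjusted p = 0.129), and -0.53 ± 0.30 at 24 h (adjusted p = 0.452). ATP5I, now ATP5ME, a small membrane subunit involved in joining ATP synthases into dimers, stood at 6.57, 6.11 and 6.09 before feeding, at 5.26, 6.31 and 5.38 at 6 h and at 5.11, 5.51 and 5.43 at 24 h. At 6 h replicate 2 lay among the arrays before feeding and the other 2 far below them, while at 24 h no array overlapped. Its difference was -0.61 ± 0.33 at 6 h (adjusted p = 0.272) and -0.91 ± 0.33 at 24 h (adjusted p = 0.292). Without 6 h replicate 2, the other tested probe of ATP5I passed at 6 h, at -1.00 with an adjusted p of 0.0456, where 12.2% of all probes did. The probe whose levels are given here did not pass.

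ATP5L, now ATP5MG, another small membrane subunit, stood at 5.30, 4.68 and 4.88 before feeding, at 4.31, 4.51 and 4.11 at 6 h and at 4.29, 4.32 and 4.78 at 24 h. The arrays at 6 h all lay below those before feeding, and at 24 h replicate 3 lay among them. The difference was -0.64 ± 0.28 at 6 h (adjusted p = 0.188) and -0.49 ± 0.28 at 24 h (adjusted p = 0.464). ATP5G1, now ATP5MC1, encodes the c subunit, whose ring turns as protons pass, and ATP5G2, now ATP5MC2, encodes the same mature protein. ATP5G1 stood at 5.83, 5.98 and 5.94 before feeding, at 5.25, 5.72 and 5.08 at 6 h and at 5.33, 5.30 and 5.42 at 24 h, with no overlap at either time. Its difference was -0.56 ± 0.26 at each time (adjusted p = 0.203 and 0.367). ATP5G2 was at -0.39 ± 0.32 at 6 h and -0.46 ± 0.32 at 24 h, with overlapping arrays at both times. Over the other 5 scalings it ranged from -0.73 to -0.49 and from -0.49 to -0.26.

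ATP5J2, now ATP5MF, the f subunit of the membrane part, stood at 6.17, 6.70 and 6.47 before feeding, at 6.24, 6.28 and 6.30 at 6 h and at 5.81, 6.14 and 5.48 at 24 h. The arrays at 24 h lay below all others. The difference was -0.17 ± 0.27 at 6 h (adjusted p = 0.716) and -0.64 ± 0.27 at 24 h (adjusted p = 0.345), and the 6 h value ranged from -0.59 to -0.28 over the other 5 scalings. ATP5S, now DMAC2L, is known as coupling factor B. Its brighter probe lies on a transcript matched to 19% of the protein and its dimmer probe on 1 matched to 82%. Whether either probe measures the gene was not tested. The brighter stood at 8.77, 9.21 and 8.64 before feeding, 8.84, 8.67 and 9.03 at 6 h and 8.40, 8.45 and 7.91 at 24 h. Its difference was -0.03 ± 0.28 at 6 h and -0.62 ± 0.28 at 24 h (adjusted p = 0.36), and the 24 h value ranged from -0.65 to -0.01 over the other 5 scalings. ATP5C1, now ATP5F1C, the central shaft of F1, was at -0.29 ± 0.31 at 6 h and -0.13 ± 0.31 at 24 h, the latter from -0.15 to -0.01 over the other 5 scalings. That probe lies on a transcript matched to 14% of the protein. Another ATP5C1 probe, on a transcript matched to 66%, was well above background on no array. Of F1, ATP5C1 was the sole gene measured: the probe for ATP5B, the catalytic beta subunit, stayed near background on every array.

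**Figure D2:**
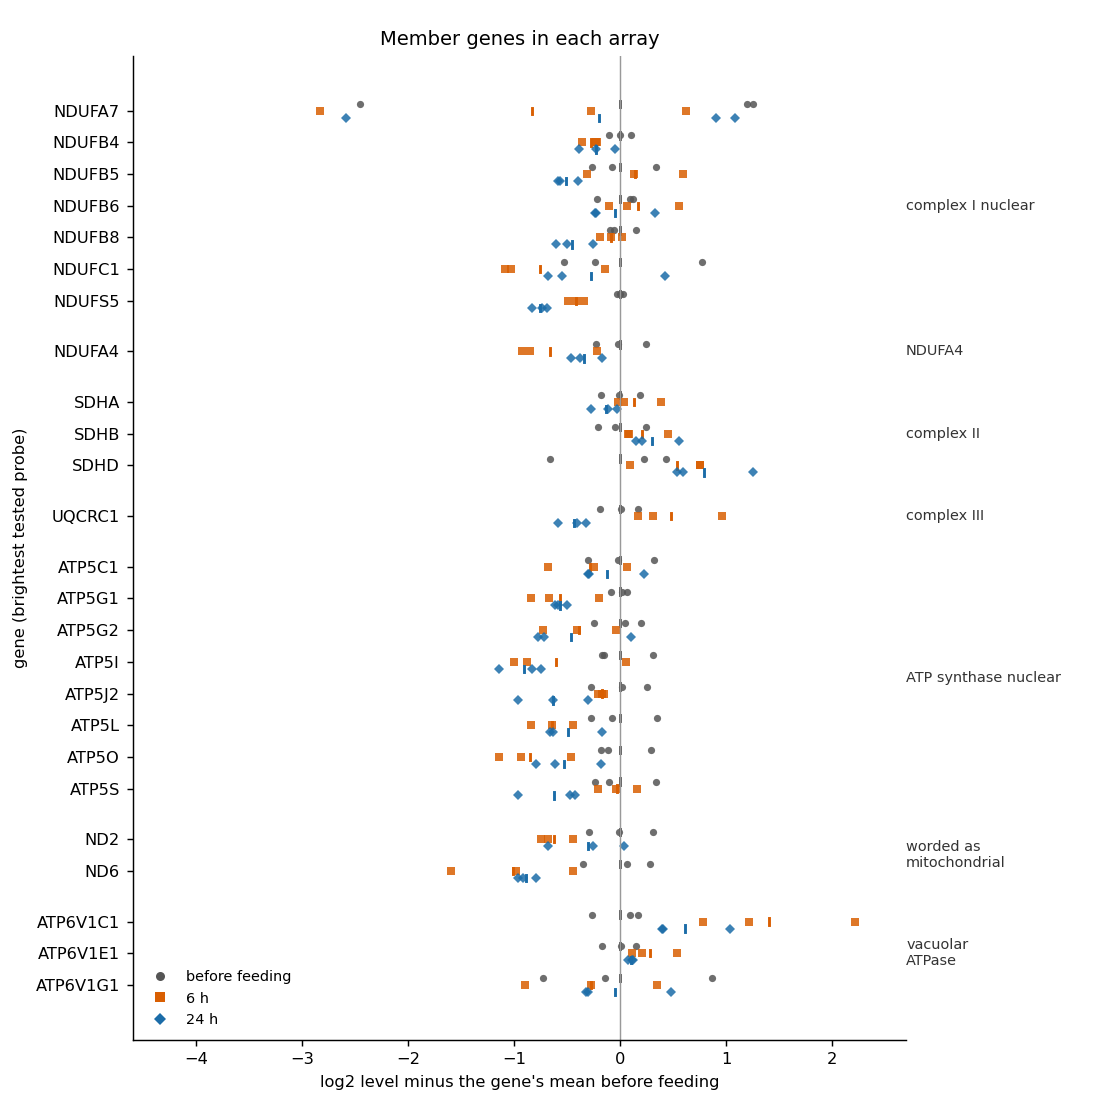
Log2 level of each tested member gene minus its mean before feeding (horizontal axis), for the brightest tested probe of each gene (rows, grouped by complex); each point is 1 array, ticks are means of 3 arrays, and colours mark the 3 times. The 8 ATP synthase genes have their 6 h and 24 h means left of 0, SDHB and SDHD have theirs right of 0, and NDUFA7 has 1 array far to the left at each time.

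Nuclear subunits of complex I had a median log2 difference of -0.27 at 6 h, with lower values for 5 of the 7 tested genes, and -0.27 at 24 h, with lower values for 7 of 7. Arrays did not overlap for 2 of the 7 at 6 h and for 3 at 24 h, all lower, where 10.7% and 19.0% of all probes did so. NDUFB6 had the smallest difference at 24 h, at -0.04 ± 0.29, and took the other sign under 4 of the other 5 scalings. With spike-in centring the median of the 7 at 24 h was 0.74, or -0.26 relative to the shift of all probes.

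NDUFS5, a subunit of the membrane arm that faces the intermembrane space, had the tightest arrays of the complex. It stood at 6.31, 6.34 and 6.37 before feeding, at 5.85, 6.00 and 5.92 at 6 h and at 5.51, 5.60 and 5.65 at 24 h, so that the 3 times did not overlap. The difference was -0.41 ± 0.23 at 6 h (adjusted p = 0.283) and -0.76 ± 0.23 at 24 h, 1.69-fold lower (adjusted p = 0.247). At 24 h against 6 h it was -0.34 ± 0.23, and this last value had the other sign under 3 of the 5 other scalings, up to 0.22. NDUFB8, an accessory subunit of the same arm often used as a marker of complex I assembly, stood at 5.59, 5.38 and 5.34 before feeding, at 5.46, 5.25 and 5.35 at 6 h and at 5.18, 4.83 and 4.94 at 24 h. Only the 24 h arrays stood apart, all below the others, at -0.45 ± 0.25 against before feeding (adjusted p = 0.439), or -0.48 to -0.28 over the other 5 scalings.

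NDUFB5, a further membrane-arm subunit, was read from a probe on a transcript matched to 21% of the protein. Whether that probe measures the gene was not tested. The probe stood at 5.26, 5.67 and 5.07 before feeding, at 5.47, 5.02 and 5.93 at 6 h and at 4.77, 4.94 and 4.75 at 24 h. Here too the 24 h arrays were the lowest, at -0.52 ± 0.30 against before feeding (adjusted p = 0.471) and -0.66 ± 0.30 against 6 h (adjusted p = 0.239). The latter ranged from -0.54 to -0.16 over the other 5 scalings. NDUFC1, a small subunit of that arm, was at -0.75 ± 0.44 at 6 h (adjusted p = 0.302) with overlapping arrays, and NDUFB4 at -0.27 ± 0.24 at 6 h with no overlap. NDUFB9, and NDUFS1, which carries iron-sulfur clusters in the arm that takes up NADH, stayed near background on every array. NDUFV2 of that same arm, outside the wording, was at -0.09 ± 0.27 at 6 h (adjusted p = 0.85). At 24 h it was at -0.2 ± 0.27 (adjusted p = 0.764), with overlapping arrays at both times. NDUFA4, annotated as complex I but now placed in complex IV, was at -0.66 ± 0.29 at 6 h (adjusted p = 0.18) and -0.34 ± 0.29 at 24 h, the latter from -0.37 to -0.16 over the other 5 scalings.

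NDUFA7, a subunit of the part of complex I that hands electrons to ubiquinone, was the only tested member lower by more than 2 on the log2 scale on all arrays numbered 1 than on the other 6. The arrays numbered 1 stood at -2.97 before feeding, -3.35 at 6 h and -3.10 at 24 h, whereas the arrays numbered 2 stood at 0.74, 0.11 and 0.39 and those numbered 3 at 0.68, -0.79 and 0.57. The number of the replicate thus separated its values where the time did not, and the difference of -0.83 at 6 h had an SE of 1.25. A second NDUFA7 probe, outside the wording, showed no such split, with 4.45, 3.72 and 3.84 on the arrays numbered 1 and 3.15 to 4.08 on the others. That probe was at -0.62 ± 0.28 at 6 h (adjusted p = 0.199) and -0.50 ± 0.28 at 24 h (adjusted p = 0.459).

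Complex II had higher values at 6 h for 3 of its 3 tested genes and at 24 h for 2 of 3. Its median log2 difference was 0.21 at 6 h, 0.30 at 24 h and 0.09 between the times after feeding. The value at 6 h had the other sign under 3 of the 5 other scalings, down to -0.12, while the value at 24 h kept its sign, from 0.27 to 0.50. SDHD, which anchors the complex in the membrane and helps to bind ubiquinone, stood at 3.85, 2.75 and 3.64 before feeding, at 3.51, 4.17 and 4.17 at 6 h and at 3.95, 4.01 and 4.67 at 24 h. All 24 h arrays lay above those before feeding, of which replicate 2 was the lowest by far. The difference was 0.54 ± 0.37 at 6 h (adjusted p = 0.372) and 0.79 ± 0.37 at 24 h, 1.73-fold higher (adjusted p = 0.368). The lowest value at 24 h with an array left out was 0.46. SDHB, the iron-sulfur subunit, stood at 5.39, 5.23 and 5.68 before feeding, at 5.51, 5.89 and 5.52 at 6 h and at 5.58, 5.64 and 5.99 at 24 h. These overlapped at both times, with differences of 0.21 ± 0.27 (adjusted p = 0.652) and 0.30 ± 0.27 (adjusted p = 0.631). SDHA, the subunit that oxidises succinate, stood at 4.50, 4.67 and 4.87 before feeding, at 4.66, 5.07 and 4.72 at 6 h and at 4.41, 4.57 and 4.65 at 24 h. Its differences were 0.14 ± 0.25 and -0.13 ± 0.25 with overlapping arrays, and both took the other sign under at least 3 of the 5 other scalings.

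Complex III was measured by UQCRC1 alone, a core protein of the complex on its matrix side, since UQCR10 and, outside the wording, CYC1 stayed near background on all 9 arrays. UQCRC1 stood at 6.26, 6.62 and 6.46 before feeding, at 6.62, 6.76 and 7.41 at 6 h and at 5.86, 6.04 and 6.13 at 24 h. The 24 h arrays were the lowest 3 of the 9, and at 6 h every array lay at or above the highest before feeding. The difference was 0.49 ± 0.29 at 6 h (adjusted p = 0.303) and -0.44 ± 0.29 at 24 h (adjusted p = 0.513). Over the other 5 scalings these ranged from 0.10 to 0.38 and from -0.46 to -0.24, and without 6 h replicate 3 the 6 h value was 0.25. At 24 h against 6 h it was -0.92 ± 0.29, 1.90-fold lower (adjusted p = 0.128), and the other 5 scalings gave -0.81 to -0.34.

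The 2 tested mammalian matches worded as mitochondrially encoded had lower values after feeding. ND6 stood at 1.01, 1.23 and 0.59 before feeding, at 0.50, -0.65 and -0.04 at 6 h and at 0.15, -0.02 and 0.03 at 24 h. No array after feeding reached the lowest before it. The difference was -1.01 ± 0.33 at 6 h, 2.01-fold lower (adjusted p = 0.112), and -0.89 ± 0.33 at 24 h (adjusted p = 0.298). With normexp background correction the 6 h value was -0.62. ND2 stood at 0.64, 1.24 and 0.92 before feeding, at 0.19, 0.49 and 0.25 at 6 h and at 0.68, 0.97 and 0.25 at 24 h. It overlapped at 24 h but not at 6 h, with differences of -0.62 ± 0.29 (adjusted p = 0.206) and -0.30 ± 0.29 (adjusted p = 0.659), or -0.36 and -0.15 with normexp.

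For a comparison within each array, every gene was first taken relative to its own mean over all arrays. The values that follow therefore do not say which genes were brighter. On that relative scale the median of ND2 and ND6 minus that of the 20 nuclear genes was 0.28 ± 0.32 (SD, n = 3) before feeding. It was -0.31 ± 0.39 at 6 h and -0.01 ± 0.40 at 24 h. These differences from before feeding, of -0.59 at 6 h and -0.29 at 24 h, came with arrays that overlapped at both times. With background correction by normexp the 6 h value was -0.05. A difference in change between ND2 and ND6 and the nuclear genes was not detectable beyond the spread between arrays. These 2 were the only tested mammalian matches worded as mitochondrial.

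**Figure D3:**
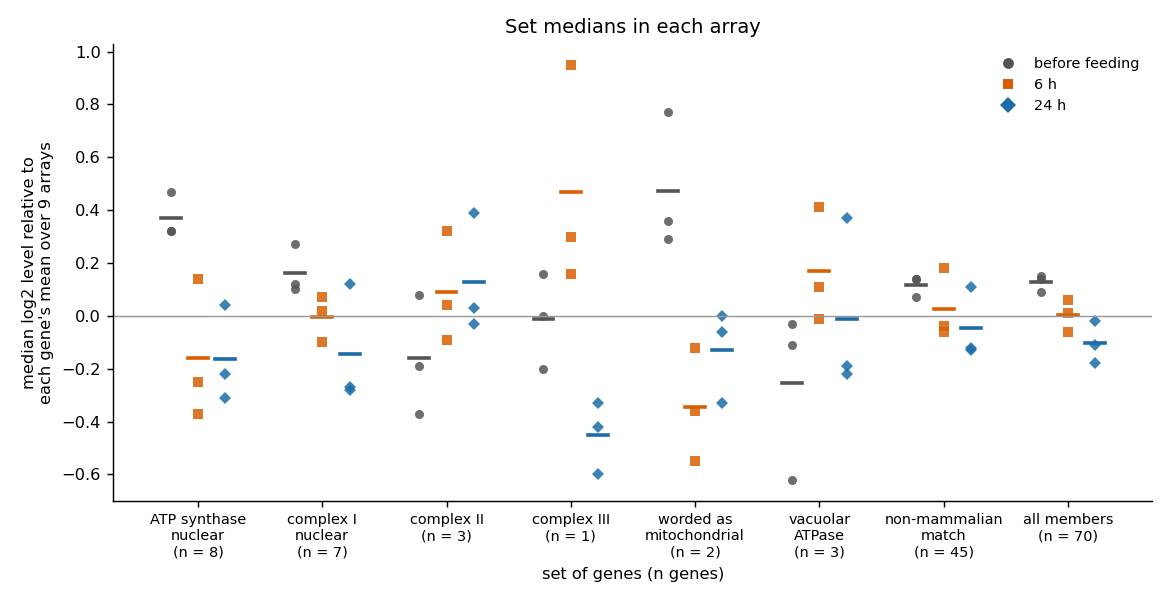
Median log2 level of each set of genes relative to each gene's mean over the 9 arrays (vertical axis), by set (horizontal axis, n genes); points are arrays, bars are means of 3 arrays and colours mark the 3 times. The ATP synthase medians after feeding lie below the 3 before it, at means of -0.16 and -0.16 against 0.37, and complex II lies the other way, at 0.09 and 0.13 against -0.16.

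The vacuolar ATPase was measured by 3 genes. ATP6V1C1, a subunit that regulates assembly of that pump, stood at 1.23, 0.87 and 1.31 before feeding, at 2.35, 1.92 and 3.35 at 6 h and at 1.54, 1.53 and 2.17 at 24 h. Every array after feeding lay above every array before it. The difference was 1.40 ± 0.38 at 6 h, 2.64-fold higher (adjusted p = 0.0859), and 0.61 ± 0.38 at 24 h (adjusted p = 0.497). Without 6 h replicate 2 it passed, at 1.71 with an adjusted p of 0.0288, where 12.2% of all probes did, and blocking on replicate number it passed at 1.40 with an adjusted p of 0.0448, where 3.05% of all probes did. With spike-in centring it passed at 24 h, at 1.62 with an adjusted p of 0.0303, where 29.8% of all probes did, and relative to the shift of all probes that value was 0.62. ATP6V1E1, a stalk subunit, was at 0.28 ± 0.25 at 6 h (0.08 to 0.18 over the other 5 scalings) and ATP6V1G1, another, at -0.27 ± 0.46, both with overlapping arrays.

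Several genes had more than 1 tested probe. ATP5I had a probe spotted 5 times, whose spots differed within an array by an SD of 0.03 to 0.07, and its 2 tested probes gave -0.61 and -0.68 at 6 h and -0.91 and -0.92 at 24 h. The 2 probes of ATP6V1C1 gave 1.40 and 1.47 at 6 h, and those of NDUFA4 gave -0.66 and -0.78. Other genes had probes that differed. For ATP5S the bright probe was at -0.03 ± 0.28 at 6 h and the dim probe at -0.86 ± 0.24 (adjusted p = 0.0871), and at 24 h against 6 h they took opposite signs, at -0.59 and 0.57. For SDHA the brightest probe was at -0.13 at 24 h and the dimmest at 0.79 ± 0.35 (adjusted p = 0.354). For ATP5J2 both bright probes were lower at 24 h, at -0.64 and -0.62, and the dim probe was at 0.11. Which probe was used for a gene therefore decided the sign in these cases.

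**Figure D4:**
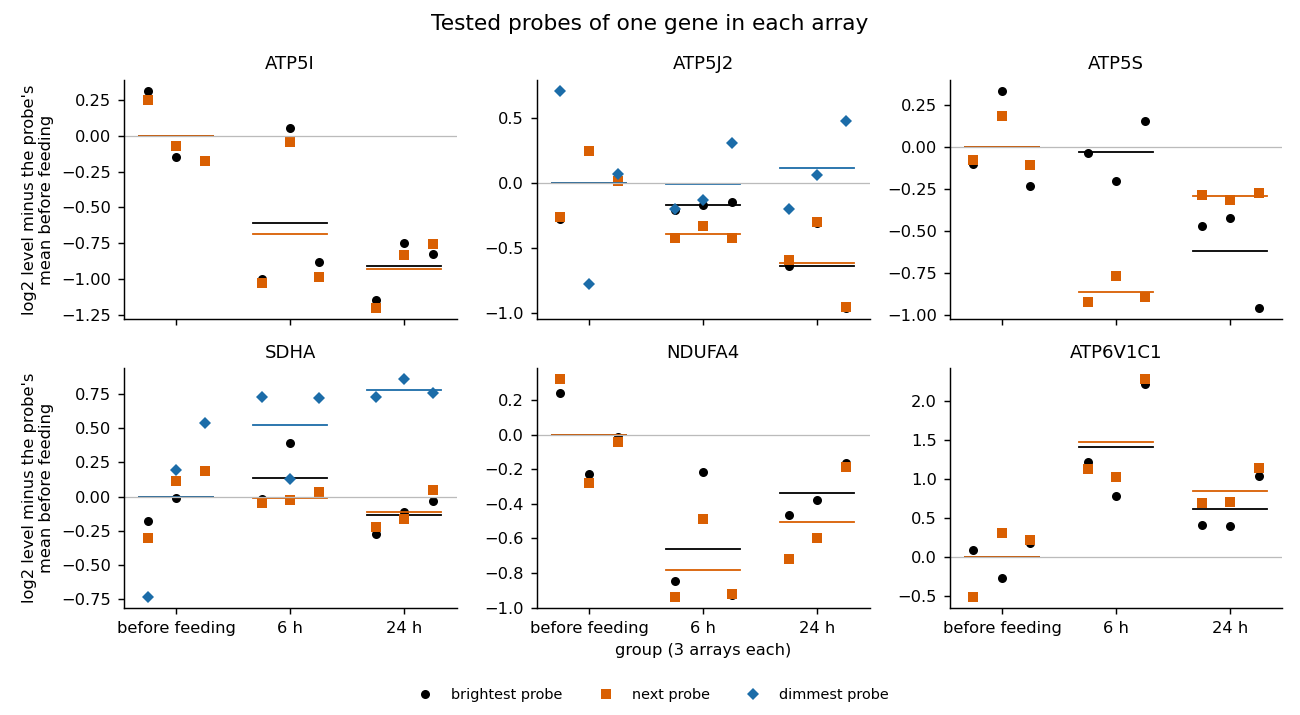
Log2 level of each tested probe minus that probe's mean before feeding (vertical axis, its own range in each panel) in the 9 arrays grouped by time (horizontal axis), for 6 genes with several tested probes; points are arrays, lines are means of 3. The probes of ATP5I, NDUFA4 and ATP6V1C1 run together, and the dimmest probes of SDHA and ATP5J2 and the dimmer probe of ATP5S part from the brightest.

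Brightness of the probes moved with the differences in both comparisons of the 24 h arrays, but showed no steady trend at 6 h against before feeding. Of the 20 nuclear genes, 16 lie in the brightest 3957 of the probes tested, whose median log2 difference was 0.10 at 6 h and -0.23 at 24 h against before feeding, and -0.35 between the times after feeding. Those 16 had medians of -0.22, -0.48 and -0.18. At 24 h 14 of the 16 had lower values, and 9 did not overlap with the arrays before feeding, where 68.7% and 31.5% of these bright probes did. At 6 h 11 of the 16 had lower values and 5 did not overlap, where 43.3% and 8.67% of the bright probes did. The median of the 16 thus lay below that of the bright probes at both times against before feeding and above it at 24 h against 6 h. The part of brightness in these values was not tested.

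**Figure D5:**
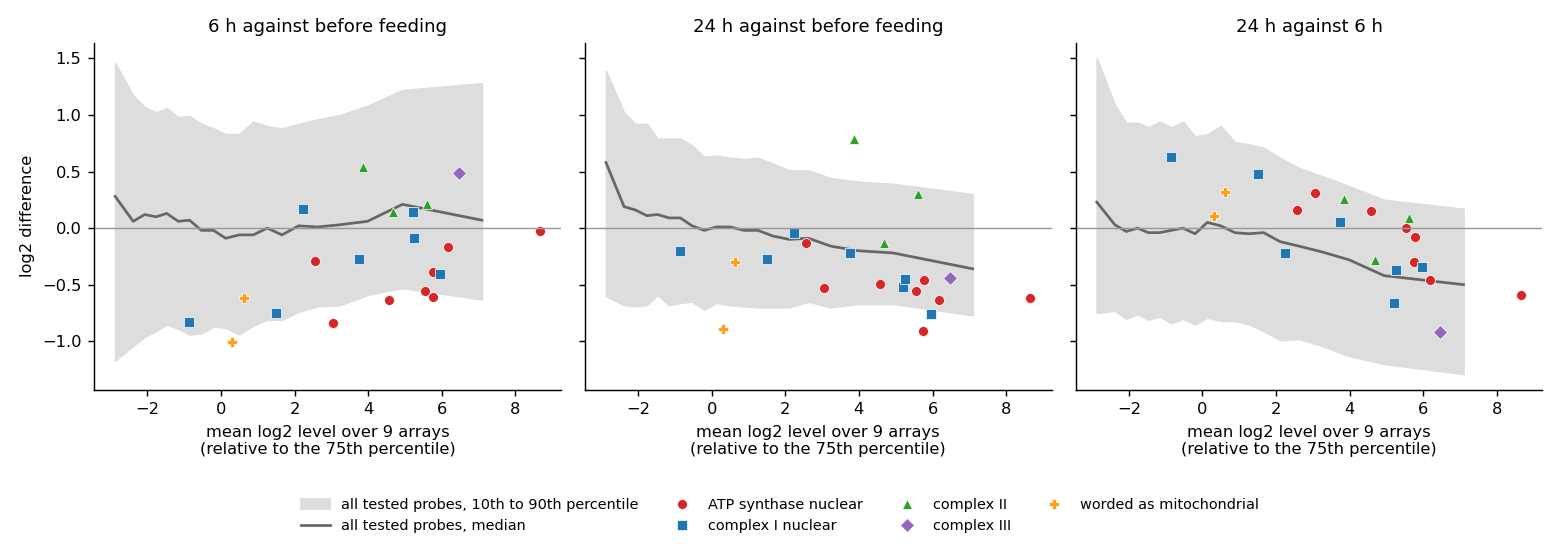
Log2 difference (vertical axis) against mean log2 level over the 9 arrays (horizontal axis) in the 3 comparisons; coloured points are member genes, and the grey line and band are the median and the 10th to 90th percentile of all probes tested, in 20 bins of signal. Most nuclear genes lie among bright probes, whose median is -0.23 at 24 h against before feeding and -0.35 at 24 h against 6 h over the 3957 brightest.

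Some non-mammalian matches were well above background at some times and not at others. A probe on a transcript matched to 8% of a plant chloroplast ATP synthase chain stood at -5.26, -4.46 and -5.16 before feeding, at -2.12, -1.73 and -2.89 at 6 h and at -4.95, -3.73 and -4.86 at 24 h. It was well above background on the 6 h arrays and on no other, so only a bound holds: at least 1.49-fold higher at 6 h and at least 2.29-fold lower at 24 h than at 6 h. A probe matched to 17% of a hookworm NADH dehydrogenase subunit stood at -3.80, -4.55 and -3.37 before feeding, at -2.06, -1.72 and -1.71 at 6 h and at -2.38, -1.81 and -2.49 at 24 h. It was near background on the arrays before feeding and well above it on the other 6, and was at least 1.99-fold higher at 6 h and at least 1.51-fold higher at 24 h. Since both were tested only through the times at which they are high, no p is given for them. Both lie among the dimmest probes tested, at percentiles 0 and 4 of signal. At an unadjusted p under 0.05, 4 of the 45 were higher and 9 lower at 6 h, where 14.6% and 11.0% of all probes were. At 24 h against before feeding 2 were higher and 4 lower, where 5.27% and 8.61% of all probes were, and at 24 h against 6 h 8 were higher and 6 lower, where 7.98% and 13.6% were. These counts take in probes tested only through the times at which they are high. Both probes described above are among the 4 higher at 6 h. The 2 higher at 24 h against before feeding are the hookworm match and a probe well above background at 24 h alone. No conclusion is therefore drawn from the counts.

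Other genes of energy metabolism were read from lists of the pathway, matched by RefSeq accession, by the gene name column or by a name in the description. Cytochrome c oxidase, the complex azide inhibits, had lower values for 5 of its 5 tested genes at both times, with medians of -1.00 and -0.55 and 0 adjusted calls. At an unadjusted p under 0.05, 2 and 1 of the 5 passed, where 25.5% and 13.9% of all probes did. The log2 of their summed signal ran from 6.61 to 7.25 before feeding. At 6 h it ran from 5.75 to 6.76 and at 24 h from 5.93 to 6.87. COX5A, an accessory subunit, stood at 2.45, 2.02 and 2.39 before feeding, at 0.98, 1.54 and 0.91 at 6 h and at 2.12, 1.97 and 2.32 at 24 h. Its difference was -1.14 ± 0.28 at 6 h (adjusted p = 0.0794) and -0.15 ± 0.28 at 24 h (adjusted p = 0.84). COX7C, a small subunit, was at -1.18 ± 0.50 at 6 h (adjusted p = 0.173), and COX7A2, another, at -0.80 ± 0.32 at 24 h (adjusted p = 0.322). ATP5IF1, the protein that blocks the ATP synthase from running in reverse, was at -0.58 ± 0.42 and -0.70 ± 0.42. The 10 tested genes of the citric acid cycle, which feeds electrons to complexes I and II, had medians of 0.05 and 0.06, with 4 of 10 lower at each time. DLD, a dehydrogenase subunit shared by several of its enzyme complexes, was at -1.13 ± 0.47 at 6 h (adjusted p = 0.172). Mitochondrial carriers and channels had a median of 0.17 at 6 h over 6 genes, and 3 of the 6 were lower at 24 h. SLC25A6, which exchanges ADP for ATP across the inner membrane, was at -0.40 ± 0.27 at 6 h and -0.66 ± 0.27 at 24 h (adjusted p = 0.327).

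Markers of blood cells differed with time in the same arrays. Neutrophil markers had higher values at 6 h for 5 of 5 tested genes, with a median of 1.42. The log2 of their summed signal ran from 8.73 to 9.29 before feeding. It ran from 9.93 to 11.09 at 6 h and from 8.58 to 8.97 at 24 h. The brightest genes weigh most in such sums, which are given in the same way for the other markers. LTF, the neutrophil granule protein lactoferrin, was at 4.50 ± 0.81 at 6 h (adjusted p = 0.0605) and stood at 8.45, 5.27 and 9.26 there, lowest in replicate 2. Monocyte markers were higher at 6 h in 5 of 5, with a median of 2.10 and summed levels of 6.87 to 7.34, 8.36 to 9.84 and 7.38 to 8.63 at the 3 times. T cell markers were lower at 6 h in 7 of 8, with a median of -0.75 and summed levels of 7.08 to 7.33, 5.39 to 6.73 and 6.38 to 6.70. For NK cells 2 of 2 were lower at 6 h, at a median of -1.24 and with sums of 1.86 to 3.16, 0.10 to 2.05 and 1.67 to 2.26. Platelet markers summed to 5.47 to 7.94, 6.86 to 7.77 and 6.26 to 7.76, with 3 of 4 higher at 6 h. The single red cell precursor marker, HBE1, ran from 6.96 to 7.50, 6.51 to 7.40 and 5.46 to 6.73. None of these markers passed the adjusted threshold. In whole blood fewer cells of a type and less RNA per cell cannot be told apart, and the part of these markers in the members' values was not tested.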

How the data were processed

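Blood RNA from PAXgene tubes (0.5 µg) was labelled with Cy3 and hybridised to Agilent porcine arrays, per the labels' protocols. The deposited scanner files hold processed spot intensity, background-subtracted on each array and not scaled between arrays, per the file headers. Feature Extraction is version 10.5.1.1 in the headers but 9.5.3.1 in the submitters' processing notes. The deposited series-wide table holds intensity scaled in a way the sources used here do not state, and served as an alternative. Spots of a probe were averaged, without control and outlier spots (43596 probes left), and each array's 75th percentile was taken from log2 values. A single limma fit (3.58.1, R 4.3.3) over 9 arrays used time alone (6 residual, 4.6 prior degrees of freedom), with Benjamini-Hochberg adjustment over 19783 probes. It was tested on simulated data. "At least N-fold" is the bright group's mean over a floor: on each dim array, its lowest signal well above background, or the probe's own where that is higher. Members and lists were chosen with earlier results of these data known. Named were all tested genes of complexes II and III and those worded as mitochondrial, up to 5 per direction and comparison of the other nuclear genes by p, and up to 2 per list. NDUFA4, the vacuolar ATPase and the non-mammalian matches described lie outside that rule and were chosen after their values were seen. Newer symbols came from RefSeq (Sscrofa11.1). Alternatives covered scaling, background, filters, array weights, the fit and each array left out.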

Additional observations from a re-analysis of the deposited data

How the results depend on the processing

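The median log2 difference over all 70 member genes or transcripts moved with the processing. At 6 h against before feeding (-0.14) it was -0.28 with quantile normalization, -0.29 with median centring, -0.25 with a 75th percentile taken over the 15803 probes above background on every array, -0.27 in the deposited series-wide values, -0.07 with no filter and 0.09 with spike-in centring. At 24 h against before feeding (-0.14) it was -0.03 with that percentile, -0.06 with normexp, -0.34 with no filter, -0.22 over probes above background on all arrays, -0.29 with array weights and 0.87 with spike-in centring. At 24 h against 6 h (-0.04) quantile normalization and the deposited values gave 0.16, median centring 0.08, that percentile 0.18, normexp 0.13, spike-in centring 0.74, no filter -0.30 and the stricter filter -0.16. The median of ND2 and ND6 minus that of the nuclear genes gave -0.05 with normexp at 6 h (-0.59) and -0.16 at 24 h against 6 h (0.30). The cause was not tested. Of the 79 member probes, array weights called 45, 25 and 21 in the 3 comparisons, beside 49.8%, 27.6% and 29.1% of all probes, and spike-in centring called 3 at 6 h and 18 at 24 h against before feeding, beside 3.33% and 29.8%. Leaving out an array in turn gave 0 to 8 calls at 6 h, 0 at 24 h and 0 to 7 at 24 h against 6 h, with medians over all members from -0.27 to -0.08, from -0.29 to -0.13 and from -0.09 to 0.00. The highest counts came without 6 h replicate 2. The replicate number as a block called 5 member probes at 6 h, beside 3.05% of all probes, among them ATP6V1C1 at 1.40 (adjusted p = 0.0448), and 0 in the other comparisons. The labels do not give pairs, and the numbers were not taken as such. Deviations of same-numbered arrays correlated from -0.20 to 0.64 and those of differently numbered arrays from -0.63 to 0.43. Not every array correlated best with its own number, and these values do not settle whether equal numbers mean the same pig. Signal over background limits the dim members, of which 49 non-mammalian and 10 mammalian probes were above it on no array.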

Other observations

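The split of NDUFA7 by replicate number was shared by few probes. Of the 19783 tested, 6 were lower by more than 2 on the log2 scale on all 3 arrays numbered 1 than on the other 6 arrays, and 2 were higher. For the arrays numbered 2 the counts were 0 and 0, and for those numbered 3 they were 0 lower and 1 higher. The gap was chosen after NDUFA7 had been seen.

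Beyond the respiratory chain, TFAM, which packages and transcribes mitochondrial DNA, was at 1.01 ± 0.42 (SE) at 24 h against 6 h (adjusted p = 0.2 by limma). ETFA, which passes electrons from fatty acid oxidation towards ubiquinone, was at 1.07 ± 0.50 in the same comparison (adjusted p = 0.243), and DLD at 1.72 ± 0.47 (adjusted p = 0.114). UCP3, an inner membrane carrier, was at -1.06 ± 0.32 there (adjusted p = 0.123), with all 24 h arrays below all 6 h arrays. At 6 h against before feeding UCP3 was at 0.78 ± 0.32 (adjusted p = 0.165), with all 6 h arrays above those before feeding. At 24 h against before feeding it was at -0.29 ± 0.32, with overlapping arrays. None passed the threshold.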
